A study of Mus musculus with 36 samples.

Results

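The genes described here are the subunits of the oxidative phosphorylation machinery in mouse intestinal organoids. They were chosen by symbol (Nduf with a letter a, b, c, s or v and a number, Sdha to Sdhd, Uqcr, Cox4 to Cox8, Atp5, and mt-Nd, mt-Co, mt-Cyb and mt-Atp, without symbols that contain -ps) and by a mean of at least 1 CPM (counts scaled to the library total) over the 36 libraries. Of the 52636 genes listed, 100 matched by symbol and 88 were above the CPM limit. These 88 members are 79 nuclear genes and 9 genes of the mitochondrial chromosome, and together they held 3.08% of the counts. The nuclear members comprise 37 genes of complex I, 4 of complex II, 8 of complex III, 15 of complex IV and 15 of complex V, the ATP synthase. Among them, 76 are annotated as protein-coding and 3 (Ndufa11b, Ndufs6b and Cox6c2) as processed pseudogenes. The 12 matches below the limit were Atp5g2, Atp5l, Cox4i2, Cox6a2, Cox7b2, Cox8b, Cox8c, Ndufa4l2, Ndufb4c, mt-Atp8, mt-Nd3 and mt-Nd4l. The mitochondrial cytochrome b gene is spelled mt-Cytb in the annotation and is not matched by the symbol rule, so its values are given beside the members without being counted among them. All 88 members passed the expression filter and were tested.

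Oxidative phosphorylation passes electrons from NADH (complex I) and succinate (complex II) through complex III to oxygen at complex IV, and the proton gradient that is built on the way drives ATP synthesis at complex V. Most subunits are made from nuclear genes and imported, while a small core set is transcribed from the mitochondrial DNA, so the complexes I, III, IV and V need both genomes and complex II needs the nuclear genome alone. In the intestinal epithelium, mitochondrial respiration is known to support stem cells in the crypt and to increase as absorptive cells mature.

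The organoids were grown from jejunal crypts of C57BL/6 mice, and 6 mice were used. Cultures were kept for 2 days in 1 of 6 conditions with 6 libraries each. The reference condition, complete media + IgG, was a commercial organoid medium (IntestiCult) with a control antibody. In QCM + IgG the cultures received medium conditioned by quiescent, serum-deprived mouse embryonic fibroblasts, and in SCM + IgG medium conditioned by senescent fibroblasts, whose senescence was induced by X-rays or doxorubicin (which of these served for these libraries is not stated). In Wnt5a + IgG the noncanonical Wnt ligand Wnt5a was added to complete media. SCM + anti-Ptk7 and Wnt5a + anti-Ptk7 replaced the control IgG by an antibody against Ptk7, a Wnt co-receptor; no library of complete media or QCM with anti-Ptk7 was analysed here. The age of the donor mice is not stated. The mice and the libraries of each condition are both numbered 1 to 6, but the labels do not say which library came from which mouse.

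Totals lay between 9581589 and 21029769 counts per library, and the mitochondrial chromosome held 0.282% to 0.914% of them. The epithelial markers Epcam, Cdh1, Krt8, Krt18, Krt19, Vil1 and Cdx2 had counts in every library, and of the 10 fibroblast markers 3 (Col3a1, Dcn and Thy1) were at 0 in every library. The other 7 had counts in 5 to 35 libraries, with the highest value in any library at 7.23 CPM for Vim and 6.33 CPM for Pdgfrb. In bulk RNA, fewer cells of a type and less RNA per cell cannot be told apart, and this holds for every difference below.

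Reads of 50 bases cannot tell a gene from a copy with the same letters, and the members differed widely in this. For each gene, the share of the 50-base words of its coding sequence (50-mers) that occur in no other annotated transcript was taken from the GENCODE annotation of GRCm38. The mitochondrial gene mt-Co2, a subunit of complex IV at chrM:7013-7696 on the plus strand, had none. Its whole coding sequence recurs in the annotated pseudogene Gm28661 (chr1:24614885-24615565, minus strand), and another nuclear copy, Gm13341 (chr2:22587291-22587962, minus strand), holds 34.97% of its 50-mers. The stretches below are printed to show how alike the mitochondrial gene and its nuclear copies are (GRCm38, 5′ to 3′ on the strand of each gene). They are chrM:7505-7654 of mt-Co2, chr1:24614924-24615073 of Gm28661 and chr2:22587333-22587482 of Gm13341, and capitals mark the 6 positions at which Gm13341 differs from the others.
mt-Co2: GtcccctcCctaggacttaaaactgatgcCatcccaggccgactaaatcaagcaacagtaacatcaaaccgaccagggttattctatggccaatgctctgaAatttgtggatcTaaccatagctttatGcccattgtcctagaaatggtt
Gm28661: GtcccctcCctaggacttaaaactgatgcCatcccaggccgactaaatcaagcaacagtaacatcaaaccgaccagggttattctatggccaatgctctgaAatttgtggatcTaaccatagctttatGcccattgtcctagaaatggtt
Gm13341: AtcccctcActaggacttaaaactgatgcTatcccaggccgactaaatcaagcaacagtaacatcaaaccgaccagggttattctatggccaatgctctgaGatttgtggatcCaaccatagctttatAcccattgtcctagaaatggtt
Among the mitochondrial members, mt-Atp6 also had 0% unique 50-mers and mt-Co3 0.136%. The share was 37.8% for mt-Nd4, 49.0% for mt-Co1, 91.8% for mt-Nd2, 92.4% for mt-Nd5 and 100% for mt-Nd1 and mt-Nd6, as for mt-Cytb.

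A nuclear example is the complex IV subunit gene Cox6c on chromosome 15 (chr15:35925886-35938246, minus strand) and the pseudogene Cox6c2 on chromosome 12 (chr12:56373593-56373823, minus strand), both of which are members. Their bases 1 to 150 are printed because the counts of each rest on few letters, and capitals mark the 6 differences.
Cox6c: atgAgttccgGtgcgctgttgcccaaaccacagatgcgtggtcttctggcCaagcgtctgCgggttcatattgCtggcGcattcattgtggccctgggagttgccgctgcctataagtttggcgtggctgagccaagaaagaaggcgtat
Cox6c2: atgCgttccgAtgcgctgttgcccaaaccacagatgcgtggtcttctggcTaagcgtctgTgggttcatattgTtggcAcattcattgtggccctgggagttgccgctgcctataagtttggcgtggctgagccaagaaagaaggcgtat
Cox6c had 46.4% unique 50-mers and Cox6c2 47.3%. In complete media Cox6c was 354 ± 21.7 CPM and Cox6c2 39.9 ± 3.93 CPM (SD, n = 6), in Wnt5a + IgG 287 ± 56.9 and 37.8 ± 7.85 CPM, and neither passed the test in any of the 6 comparisons. Of the 79 nuclear members, 37 had only unique 50-mers and 5 had under 30%. Those 5 were Ndufb4 (0%), Atp5g1 (0.279%), Cox7c (18.1%), Uqcrb (27.1%) and Ndufs5 (27.5%).

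Levels were compared between genes as CPM per kb of annotated coding sequence (exon sequence for the pseudogenes). The nuclear member with the highest mean level per kb over all libraries was Ndufb9 in complex I (623), Sdhd in complex II (1491), Uqcrq in complex III (1986), Cox6b1 in complex IV (2343) and Atp5g3 in complex V (2612). Among the mitochondrial members, mt-Nd1 had 2333 CPM per kb, mt-Nd2 399.6, mt-Nd6 358, mt-Nd5 309, mt-Nd4 239 and mt-Co1 159.7. By contrast mt-Co3 had 4.38, mt-Atp6 3.85 and mt-Co2 1.51, which are the 3 mitochondrial members with under 1% unique 50-mers, and mt-Cytb had 1492. Below the CPM limit, mt-Nd3 had 0.646 CPM per kb with 1.01% unique 50-mers and mt-Nd4l 0.147 with 0%. But mt-Atp8 had 1.15 CPM per kb with 100%, so a low level also stood with a full share of unique 50-mers. The 37 nuclear members with only unique 50-mers had a median of 509 CPM per kb (4.82 to 2612), and the 5 with under 30% a median of 38.2 (17.2 to 97.0). How reads that map to several places were counted is not given in the sources used here, and the part of shared sequence in these levels was not tested.

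**Figure D1:**
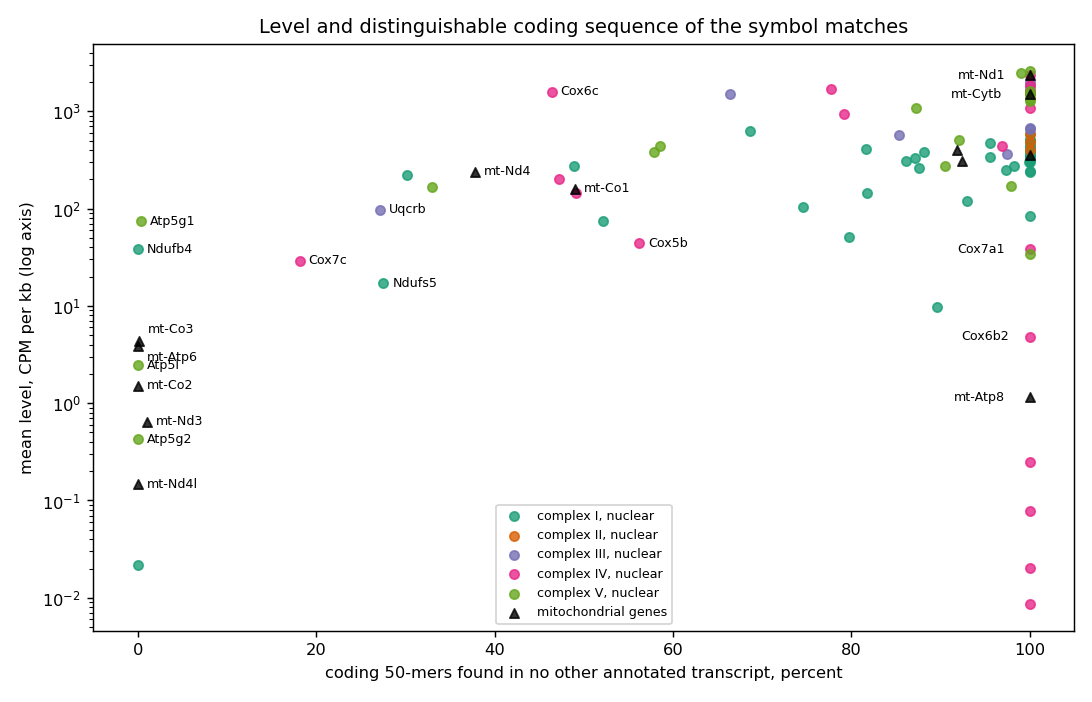
Each point is a gene matched by symbol or mt-Cytb, with the percent of its 50-mers found in no other annotated transcript on the x axis and its mean level over 36 libraries in CPM per kb on a logarithmic y axis; circles are nuclear genes coloured by complex, triangles are mitochondrial genes, and Cox7b2 and Cox8c, which lie under the axis, are not drawn. The mitochondrial members mt-Co2, mt-Atp6 and mt-Co3 sit at the left edge, and mt-Nd1 and mt-Cytb at the right edge with 2333 and 1492 CPM per kb.

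Summed over the 79 nuclear members, the share of the library's counts was 2.94% ± 0.101 (SD, n = 6) in complete media + IgG, with a lowest, median and highest library of 2.81%, 2.93% and 3.12%. In Wnt5a + IgG it was 2.19% ± 0.327 (1.64%, 2.32% and 2.46%), which is 74.6% of the mean in complete media, and in Wnt5a + anti-Ptk7 2.24% ± 0.344 (1.60%, 2.38% and 2.54%). Every library of both Wnt5a conditions thus lay below the lowest library of complete media. QCM + IgG had 3.15% ± 0.139 (3.01%, 3.09% and 3.36%), SCM + IgG 2.72% ± 0.148 (2.44%, 2.77% and 2.83%) and SCM + anti-Ptk7 2.81% ± 0.271 (2.35%, 2.82% and 3.18%), and each of these overlapped with complete media. The SCM + IgG sum was 92.6% of that in complete media. The mean log2 CPM of the same members, which weights each gene equally, came to 102.9%, so that the direction turned with the summary used. The scaling differs as well, since the sums use plain library totals and the mean log2 CPM is TMM-scaled. Replicate 1 was the lowest library in both Wnt5a conditions and in SCM + anti-Ptk7. These sums are scores over chosen genes and were given no test.

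The 9 mitochondrial members summed to 0.342% ± 0.0812 in complete media + IgG (0.224%, 0.344% and 0.427%), to 0.331% ± 0.158 in QCM + IgG, and to 0.429% ± 0.106 in SCM + IgG. They reached 0.470% ± 0.0390 in SCM + anti-Ptk7, 0.401% ± 0.107 in Wnt5a + IgG (0.281%, 0.387% and 0.600%) and 0.416% ± 0.141 in Wnt5a + anti-Ptk7. All 5 conditions overlapped with complete media. Mitochondrial counts per 100 nuclear counts of the members were 11.6 ± 2.82 in complete media + IgG (7.97, 11.6 and 14.7). They were 18.2 ± 3.17 in Wnt5a + IgG (15.7, 17.2 and 24.5), where no library overlapped with complete media, and 18.2 ± 4.23 in Wnt5a + anti-Ptk7 (13.7, 17.3 and 25.004), where some did. The other conditions overlapped with complete media too, with 10.5 ± 4.89 in QCM + IgG, 15.6 ± 3.30 in SCM + IgG and 16.8 ± 1.58 in SCM + anti-Ptk7, so that both SCM means lay above that of complete media as well. Of the mitochondrial sum, mt-Nd1 alone held 0.192% ± 0.0437 of all counts in complete media.

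**Figure D2:**
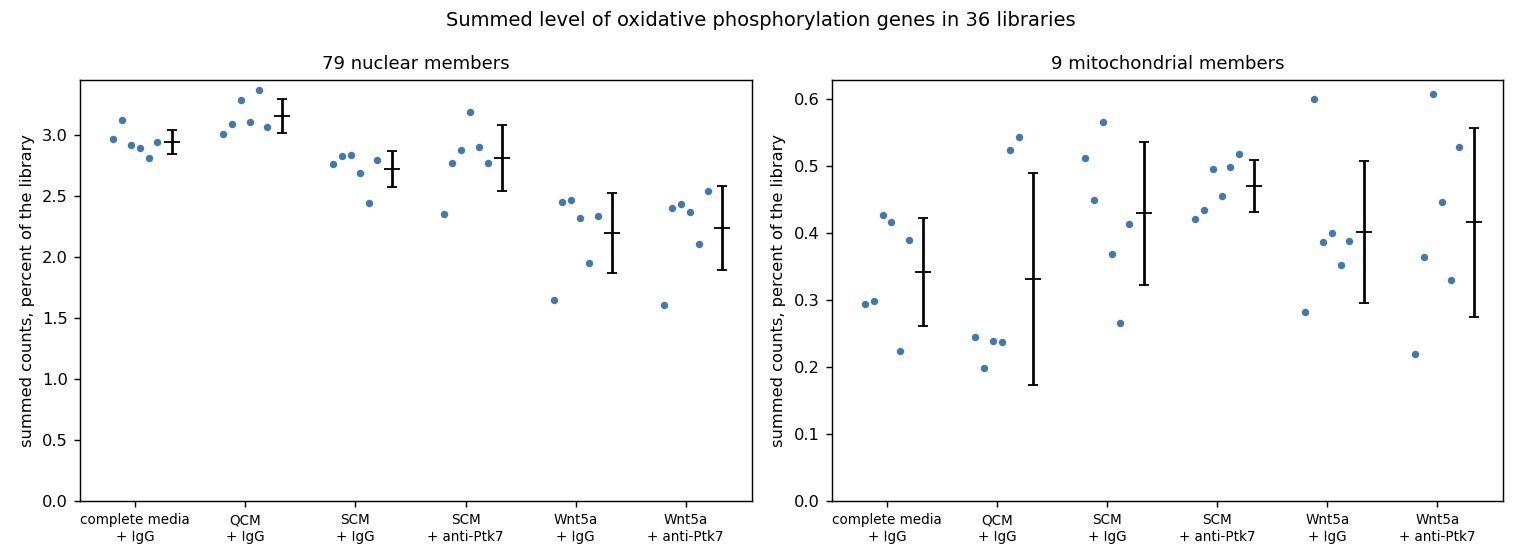
Each point is a library, placed by condition on the x axis, and the y axis gives the summed counts of the 79 nuclear (left) or 9 mitochondrial members (right) in percent of the library's counts; horizontal bars with whiskers are means with SD of 6 libraries. All points of the Wnt5a conditions on the left lie under 2.81%, the lowest library of complete media, while the points on the right overlap between conditions.

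Wnt5a went with the most calls among the members. In Wnt5a + IgG, 50 of the 79 nuclear members were lower than in complete media + IgG (edgeR quasi-likelihood test, adjusted p under 0.05 over 15497 genes) and 1 was higher; of all genes tested, 9.4% were lower and 12.5% higher. The lower members were 23 of 37 in complex I, 4 of 4 in complex II, 7 of 8 in complex III, 7 of 15 in complex IV and 9 of 15 in complex V. The median log2 fold change was −0.37 over the 79 nuclear members (75 of 79 estimates below 0) and −0.37, −0.36, −0.46, −0.31 and −0.38 for complexes I to V, against 0.01 over all genes. With a fold change over 1.5 as a further condition, 2 nuclear members were lower, Cox6b2 and Uqcrq, beside 1.88% of all genes. Without Wnt5a + IgG replicate 1, the library with the lowest sum, 38 members were lower and the median was −0.30.

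Complex III, which passes electrons from ubiquinol to cytochrome c, had the lowest of these medians. Uqcrq (chr11:53427922-53430831, minus strand), a small subunit, had a lowest, median and highest library of 501, 531 and 684 CPM in complete media and of 259.9, 386 and 417 CPM in Wnt5a + IgG. The conditions did not overlap, and the log2 fold change with its SE was −0.61 ± 0.11, adjusted p = 0.000144. Uqcrc1, a core protein on the matrix side (chr9:108936633-108949623, plus strand), had 1050.0, 1121 and 1279 CPM and 723, 810.1 and 932 CPM, also without overlap (−0.49 ± 0.07, adjusted p = 5.71e-06). Uqcr10, another small subunit, had 314, 356 and 494 CPM and 162, 263 and 332 CPM, which overlapped (−0.56 ± 0.15, adjusted p = 0.00527). The member of complex III that did not pass was Uqcrb (−0.12 ± 0.19, adjusted p = 0.696), the one with under 30% unique 50-mers.

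In complex I, Ndufv1 (chr19:4007384-4012806, minus strand) carries the NADH-binding site. Its libraries had 365, 389.7 and 422 CPM in complete media and 188, 276 and 310.5 CPM in Wnt5a + IgG, without overlap (−0.54 ± 0.09, adjusted p = 4.72e-05). Ndufs1, the largest iron-sulfur subunit, had 279, 309.7 and 344 CPM against 202, 239.8 and 278 CPM without overlap (−0.37 ± 0.09, adjusted p = 0.00228). The accessory subunits Ndufa8 (−0.48 ± 0.09, adjusted p = 0.000104) and Ndufa9 (−0.44 ± 0.09, adjusted p = 0.000308) did not overlap between the conditions. Ndufb9, the member of the complex with the highest level per kb, was 350.0 ± 25.7 CPM in complete media and 257 ± 52.6 CPM in Wnt5a + IgG, with overlap (−0.44 ± 0.12, adjusted p = 0.0058). The accessory subunits Ndufa7 (−0.12 ± 0.11, adjusted p = 0.503) and Ndufs5 (0.32 ± 0.24, adjusted p = 0.375) did not pass.

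Complex II, succinate dehydrogenase, links the TCA cycle to the chain. Its iron-sulfur subunit Sdhb had 422, 464 and 502 CPM in complete media and 233, 345 and 391 CPM in Wnt5a + IgG (−0.48 ± 0.10, adjusted p = 0.000532). The membrane anchor Sdhd had 768, 791 and 897 CPM against 495, 604 and 692 CPM (−0.42 ± 0.08, adjusted p = 0.00038). In neither gene did the conditions overlap. The other anchor, Sdhc (−0.29 ± 0.11, adjusted p = 0.0455), and the flavoprotein Sdha (−0.22 ± 0.08, adjusted p = 0.0293) overlapped, and with single libraries left out the call was lost in 7 of 12 fits for Sdhc and in 2 of 12 for Sdha.

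In complex IV, cytochrome c oxidase, Cox4i1 had 978, 1042 and 1144 CPM in complete media and 646, 827 and 874 CPM in Wnt5a + IgG without overlap (−0.41 ± 0.09, adjusted p = 0.00109). In the ATP synthase, Atp5g3, a gene of the membrane ring subunit c, had 1078, 1225 and 1277 CPM against 663, 972 and 1049 CPM, again without overlap (−0.38 ± 0.11, adjusted p = 0.0113). Its paralogue Atp5g1 did not pass, with 31.3 ± 3.03 and 24.2 ± 5.50 CPM (−0.36 ± 0.15, adjusted p = 0.0713). The 4 nuclear members with an estimate above 0 were Cox7a1, Cox7c, Ndufs5 and Atp5s, and Cox7c (0.38 ± 0.24, adjusted p = 0.292) and Ndufs5 are among the 5 with under 30% unique 50-mers. Of those 5, Ndufb4 of complex I was lower without overlap (−0.54 ± 0.17, adjusted p = 0.0163), and Atp5g1 and Uqcrb had estimates below 0 and did not pass. Of the 49 nuclear members with at least 90% unique 50-mers, 36 were lower and 1 was higher.

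**Figure D3:**
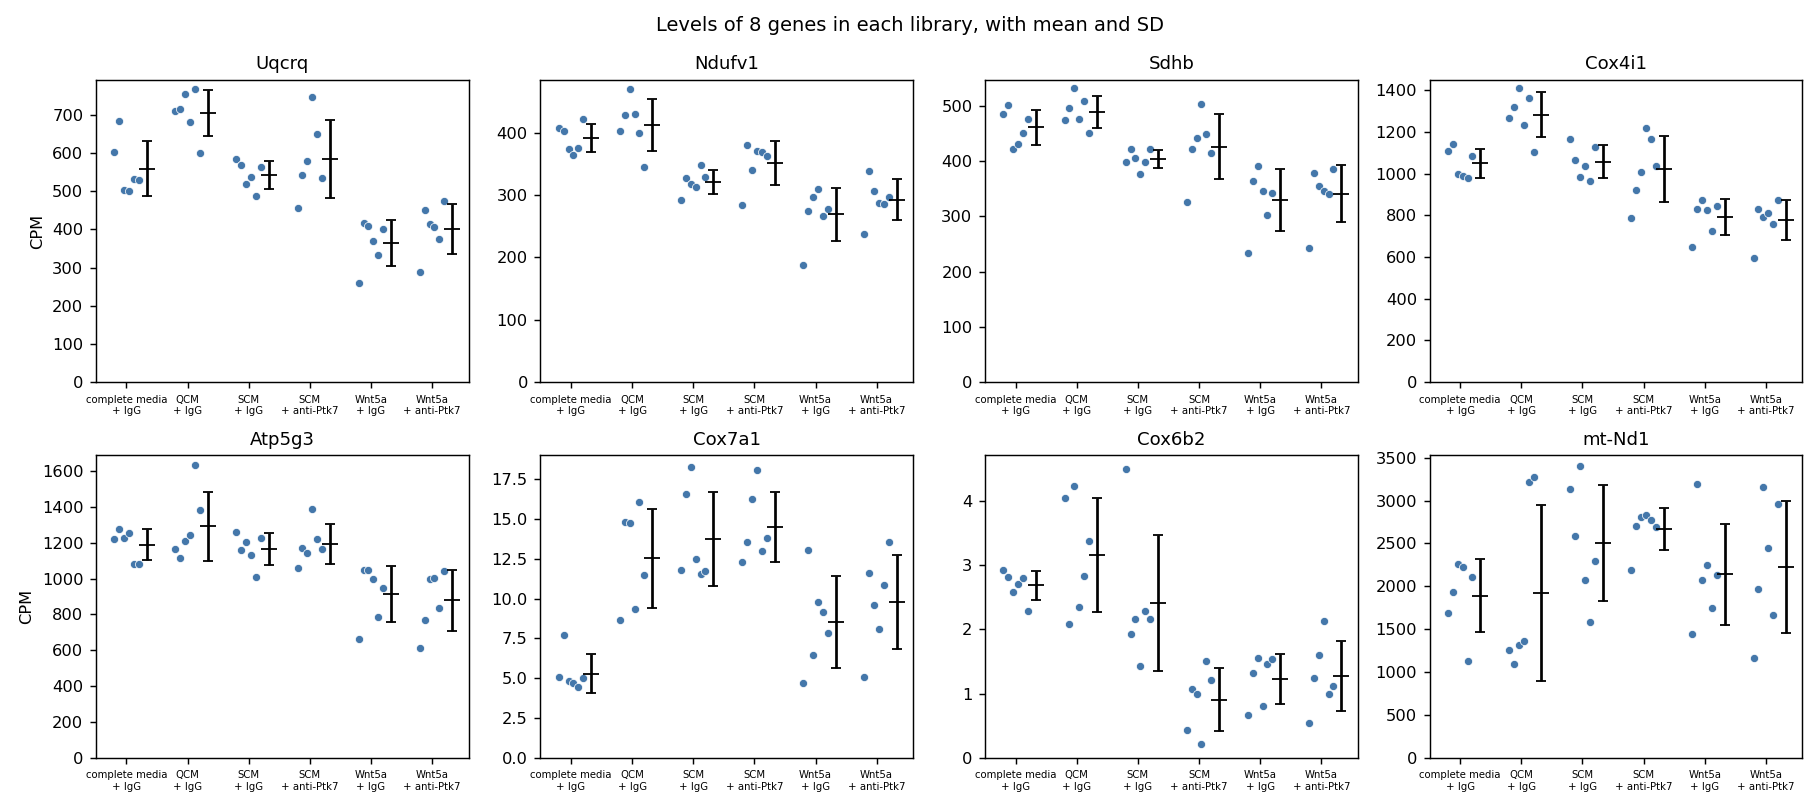
CPM of 8 genes in each of the 36 libraries (y axis, starting at 0) by condition (x axis); points are libraries, and bars with whiskers are means with SD of 6 libraries. Uqcrq, Ndufv1, Sdhb, Cox4i1 and Atp5g3 lie lower in Wnt5a + IgG than in complete media, Cox7a1 is 5.30 ± 1.20 CPM in complete media and 13.7 ± 2.93 CPM in SCM + IgG, and the points of mt-Nd1 overlap between the conditions.

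In SCM + IgG, 7 nuclear members were lower than in complete media and 2 higher, with 4.45% of all genes lower and 7.43% higher. The median log2 fold change of the nuclear members was 0.04, with 48 of 79 estimates above 0, and it lay between −0.01 and 0.06 when single libraries were left out and at −0.02 over the 49 members with at least 90% unique 50-mers. The 7 lower members were Ndufs1, Ndufv1 and Ndufa9 of complex I, Sdha of complex II, Uqcrc1 of complex III, and Atp5a1 (−0.24 ± 0.06, adjusted p = 0.00974) and Atp5b (−0.19 ± 0.06, adjusted p = 0.0405), which form the catalytic head of the ATP synthase. Ndufs1 had 185, 241 and 259.7 CPM in SCM + IgG and lay below complete media in every library (−0.39 ± 0.09, adjusted p = 0.00298). Ndufv1 had 291, 323 and 348 CPM, also without overlap (−0.28 ± 0.09, adjusted p = 0.0343), as did Uqcrc1 with 869, 984 and 999.8 CPM (−0.26 ± 0.07, adjusted p = 0.0142). Ndufa9 (−0.26 ± 0.09, adjusted p = 0.0433) and Sdha (−0.23 ± 0.08, adjusted p = 0.042) overlapped. Without single libraries the call was lost in 8 of 12 fits for Ndufa9 and in 5 of 12 for Ndufv1 and for Sdha, and under the other alternatives in 4 of 9 for Sdha. The call of Atp5b was lost in 6 of all 21 alternatives. Of all 88 members, 10 passed, and 4 did without SCM + IgG replicate 1, 5 without complete media + IgG replicate 3, and 6 without SCM + IgG replicate 3 or complete media + IgG replicate 1 or 4.

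The 2 higher members in SCM were Cox7a1, described with the isoforms, and Ndufs5, an accessory subunit of complex I. Ndufs5 had a lowest, median and highest library of 2.17, 3.97 and 5.45 CPM in complete media and of 4.01, 6.38 and 8.91 CPM in SCM + IgG, which overlapped (0.78 ± 0.24, adjusted p = 0.0303), and its call was lost in 6 of 21 alternatives.

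QCM + IgG differed little from complete media over all genes, with 0.542% higher and 0.116% lower. Among the nuclear members 1 was higher (Cox7a1) and 0 lower, while 74 of 79 estimates lay above 0 with a median log2 fold change of 0.23, against 0.02 over all genes. At an unadjusted p under 0.05 in edgeR there were 37 nuclear members, 19 of them in complex I and 9 in complex IV, and 1858 of all genes tested. Complex IV had a summed share of 0.522% ± 0.0389 in QCM + IgG (0.495%, 0.505% and 0.596%) and of 0.444% ± 0.0172 in complete media (0.428%, 0.441% and 0.472%), without overlap. The sums of complexes I, II, III and V overlapped, at 110.2%, 98.7%, 108% and 103% of complete media. Every QCM library lay above every library of complete media in 11 of the 79 nuclear members (5 of complex I, 5 of complex IV and 1 of complex V) and in 1.39% of all genes. Those of complex IV were Cox7a1, the pseudogene Cox6c2, Cox6a1 (0.24 ± 0.08, adjusted p = 0.177), Cox6b1 (0.27 ± 0.08, adjusted p = 0.105) and Cox8a (0.30 ± 0.10, adjusted p = 0.165), and all but Cox7a1 did not pass. With QCM + IgG and complete media alone in the fit, 8 members were higher, with DESeq2 3, and with the replicate number as a block 4.

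SCM and QCM differ in the state of the fibroblasts that conditioned the medium. In SCM + IgG, 4 nuclear members were lower than in QCM + IgG and 0 higher, beside 0.71% and 1.01% of all genes. They were Ndufv1 (−0.36 ± 0.09, adjusted p = 0.0327), Ndufa8 (−0.35 ± 0.09, adjusted p = 0.0299), Uqcrc1 (−0.28 ± 0.07, adjusted p = 0.0322) and Atp5d (−0.25 ± 0.06, adjusted p = 0.0396), the last a subunit of the central stalk of the ATP synthase whose call was lost in 14 of 21 alternatives. Ndufa8 had 244, 283 and 309 CPM in QCM + IgG and 209.8, 217 and 240.2 CPM in SCM + IgG, without overlap, as held for Uqcrc1 but not for Ndufv1. The median over the nuclear members was −0.20, with 72 of 79 estimates below 0. The count moved with single libraries. It was 0 without QCM + IgG replicate 2, 3 or 4 or SCM + IgG replicate 1 or 4, 1 without SCM + IgG replicate 6, 2 without SCM + IgG replicate 2 or 5, and 8 without QCM + IgG replicate 6. With the replicate number as a block it was 13, and the share of all genes called in these fits is not given here.

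**Figure D4:**
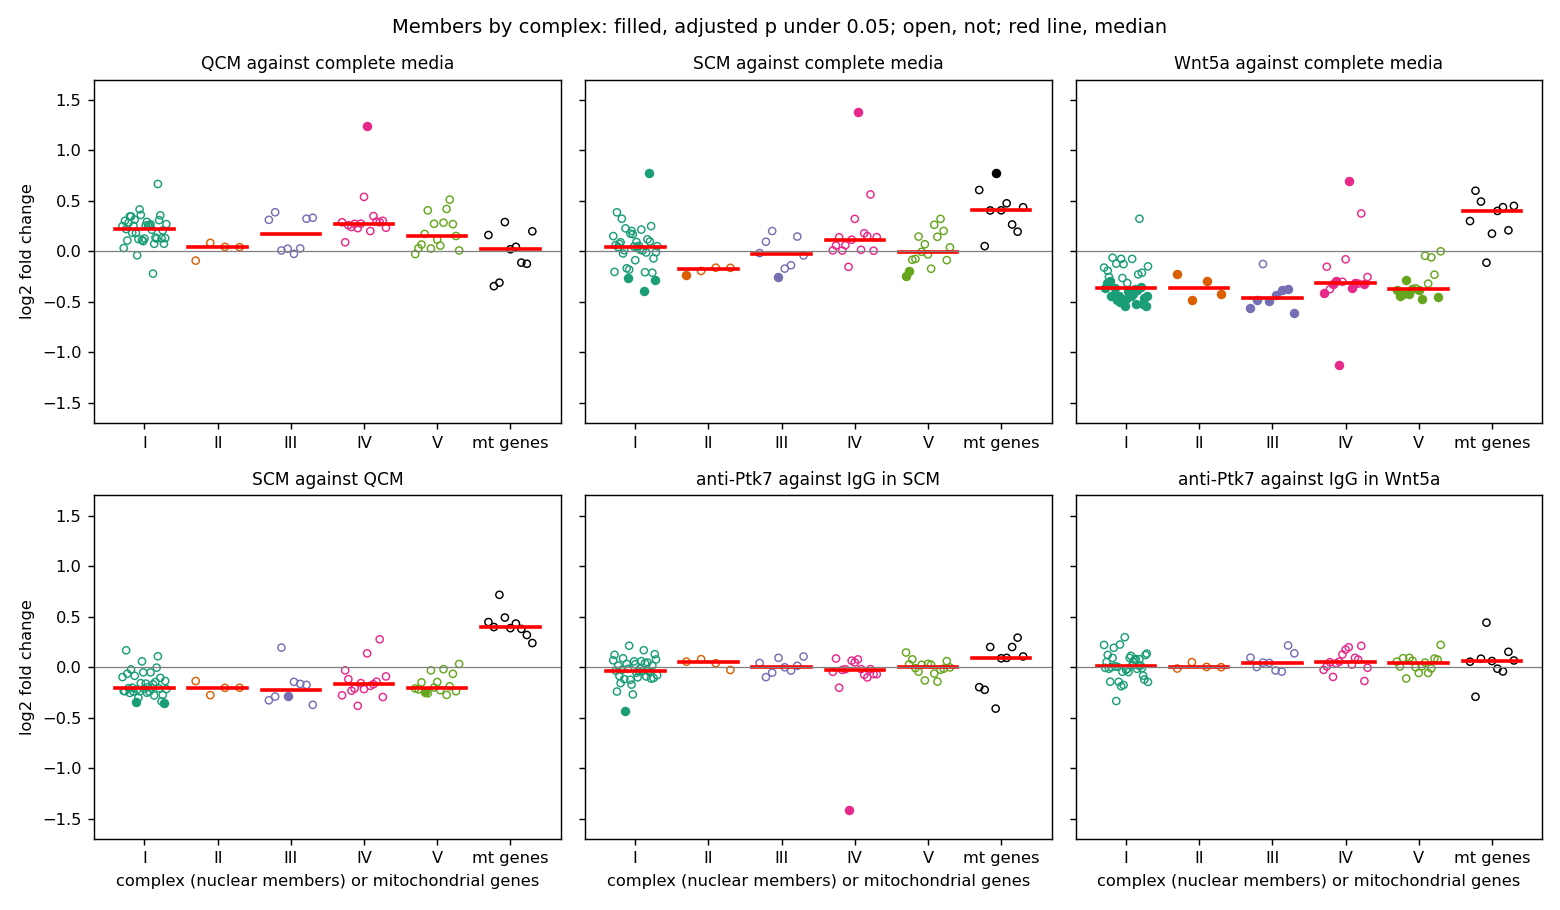
Log2 fold change (y axis) of the 88 members in 6 comparisons, 1 panel each, with nuclear members split by complex and mitochondrial members at the right of each panel (x axis); filled points passed at an adjusted p under 0.05, open points did not, and red lines are medians. In the Wnt5a panel the medians of the 5 nuclear complexes lie between −0.46 and −0.31 and that of the mitochondrial genes at 0.40, and in the panels of the antibody the medians lie near 0.

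The antibody against Ptk7 went with few calls among all genes and among the members alike. In SCM, 2 nuclear members were lower with anti-Ptk7 than with IgG and 0 higher, beside 1.44% and 1.28% of all genes. Cox6b2, a subunit isoform of complex IV, had 1.43, 2.15 and 4.49 CPM in SCM + IgG and 0.219, 1.03 and 1.51 CPM in SCM + anti-Ptk7 (−1.42 ± 0.34, adjusted p = 0.0181). Ndufa7, an accessory subunit of complex I, had 80.0, 103 and 112 CPM against 61.9, 71.4 and 89.9 CPM (−0.43 ± 0.11, adjusted p = 0.0321). Both genes overlapped between the conditions. SCM + IgG replicate 1 held the highest value of Cox6b2, and without this library 0 members passed; 1 passed when the library left out was replicate 2 or 3 of the IgG arm or replicate 1, 2, 3 or 6 of the anti-Ptk7 arm, and 0 with these conditions alone in the fit.

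In Wnt5a, 0 of the 79 nuclear members passed between anti-Ptk7 and IgG (edgeR; 2 at an unadjusted p under 0.05, Ndufa7 and Ndufb10), beside 1.52% of all genes lower and 1.05% higher; with DESeq2 or with voom and limma 0 passed too. The median log2 fold change was 0.02, and the estimates ran from −0.34 ± 0.11 for Ndufa7 to 0.30 ± 0.17 for Ndufb4. Without Wnt5a + IgG replicate 1, 1 member was lower. The nuclear sum was 76.1% of that in complete media in Wnt5a + anti-Ptk7 and 74.6% in Wnt5a + IgG.

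Whether the difference between the antibodies was unlike in Wnt5a and SCM was tested as an interaction. It passed in 0 members and in 0.0% of all genes (edgeR; 602 genes at an unadjusted p under 0.05). Among the members, Cox6b2 (1.47 ± 0.48 on the log2 scale) and mt-Co3 (0.85 ± 0.36) were at an unadjusted p under 0.05, and the lowest adjusted p was 0.999. Any difference among the 6 conditions was found in 68 of the 79 nuclear members and in 0 of the 9 mitochondrial members, beside 39.5% of all genes. By complex these were 30 of 37, 4 of 4, 7 of 8, 14 of 15 and 13 of 15. In the 6 comparisons, 53 nuclear members passed at least once.

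**Figure D5:**
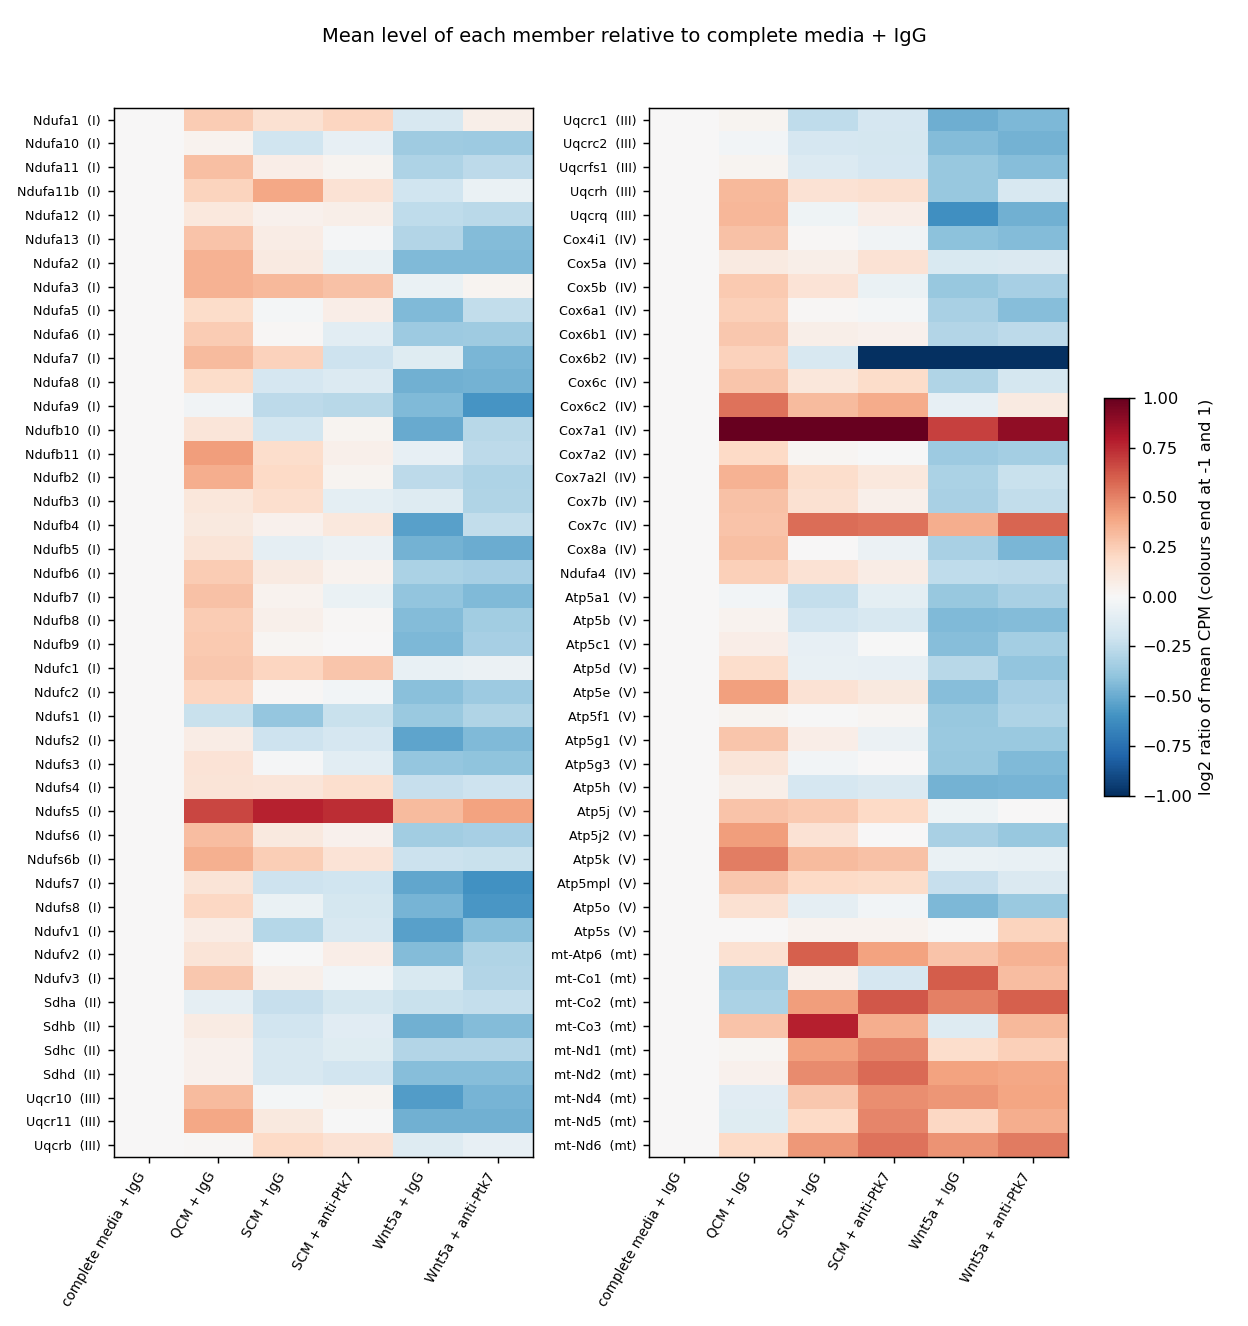
Each row is a member, each column a condition, and the colour is the log2 ratio of the mean CPM to that in complete media + IgG, with colours ending at −1 and 1. The columns of both Wnt5a conditions are on the lower side for most nuclear members and on the higher side for most mitochondrial ones.

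The mitochondrial members had wider spreads. In Wnt5a + IgG, 0 of 9 passed (edgeR; 1 at an unadjusted p under 0.05, and 0 passed with DESeq2 or with voom and limma), while 8 of 9 estimates lay above 0 with a median log2 fold change of 0.40, which was 0.23 without Wnt5a + IgG replicate 2. A rise of mt-Nd1, a core subunit of complex I (chrM:2751-3707, plus strand), was not detectable at this spread, with 1134, 2021 and 2263 CPM in complete media and 1447, 2102 and 3188 CPM in Wnt5a + IgG (0.18 ± 0.25, adjusted p = 0.676). For the other subunits of complex I the estimates in Wnt5a were 0.40 ± 0.24 for mt-Nd2, 0.44 ± 0.23 for mt-Nd4, 0.21 ± 0.18 for mt-Nd5 and 0.45 ± 0.22 for mt-Nd6. For the complex IV subunits they were 0.60 ± 0.48 for mt-Co1, 0.49 ± 0.39 for mt-Co2 and −0.11 ± 0.26 for mt-Co3, and for the ATP synthase subunit mt-Atp6 0.30 ± 0.32. mt-Nd6 lies on the other strand than the rest, and whether counting used the strand is not given in the sources used here. The values of mt-Nd6 may therefore include reads from RNA of the opposite strand, which was not tested. The gene of the catalytic subunit of complex III, mt-Cytb, had 1062, 1369 and 2113 CPM in complete media and 1549.7, 1792 and 2497 CPM in Wnt5a + IgG (0.34 ± 0.21, adjusted p = 0.254).

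In SCM + IgG, 9 of 9 estimates lay above 0 with a median of 0.41, and 1 passed, mt-Co3, with 2.17, 2.52 and 4.32 CPM in complete media and 3.58, 4.75 and 5.82 CPM in SCM + IgG (0.78 ± 0.26, adjusted p = 0.0431). The conditions overlapped through complete media + IgG replicate 2. This call was lost in 9 of 12 fits without a single library, and also after the counts of the nuclear copies were added to those of the mitochondrial genes (0.57, adjusted p = 0.153). Against QCM + IgG, 0 of 9 passed in SCM + IgG and 9 of 9 estimates lay above 0 (median 0.40, but 0.60 without QCM + IgG replicate 5 and 0.65 without replicate 6). In QCM + IgG, 0 of 9 passed against complete media (median 0.02, from −0.21 to 0.12 with single libraries left out), and mt-Nd1 had 1099.8, 1339 and 3270.0 CPM, with replicates 5 and 6 at 3218 and 3270.0 CPM and the other 4 at 1362 CPM or below. With anti-Ptk7, 0 of 9 passed in SCM (median 0.09, from −0.01 to 0.19) and 0 of 9 in Wnt5a (median 0.06, from −0.07 to 0.23).

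Several subunits of complex IV exist as isoforms made in different tissues. Cox7a1, the isoform of heart and skeletal muscle (chr7:30184144-30186078, plus strand), had a lowest, median and highest library of 4.44, 4.93 and 7.70 CPM in complete media, 8.67, 13.1 and 16.1 CPM in QCM + IgG, and 11.5, 12.1 and 18.3 CPM in SCM + IgG. Both QCM (1.24 ± 0.22, adjusted p = 0.0015) and SCM (1.38 ± 0.22, adjusted p = 3.79e-05) were higher than complete media without overlap. In Wnt5a + IgG it had 4.72, 8.51 and 13.05 CPM, which overlapped (0.70 ± 0.22, adjusted p = 0.0176; adjusted p = 0.0757 without Wnt5a + IgG replicate 2). Over all libraries Cox7a1 had 38.1 CPM per kb and the widely expressed isoform Cox7a2 1070.5. Cox7a2 was 279 ± 13.4 CPM in complete media, 321 ± 36.9 in QCM + IgG, 282 ± 32.1 in SCM + IgG and 217 ± 34.9 in Wnt5a + IgG, the last without overlap (−0.37 ± 0.11, adjusted p = 0.0121).

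Cox6b2, an isoform known from testis (chr7:4751792-4753094, minus strand), had 2.29, 2.75 and 2.92 CPM in complete media and 0.674, 1.39 and 1.56 CPM in Wnt5a + IgG. The conditions did not overlap (−1.12 ± 0.33, adjusted p = 0.0135). Its general counterpart Cox6b1 was 611 ± 35.1 and 499 ± 54.2 CPM, which overlapped (−0.29 ± 0.08, adjusted p = 0.00586), and over all libraries Cox6b2 had 4.82 and Cox6b1 2343 CPM per kb. Cox6a1 (−0.33 ± 0.08, adjusted p = 0.00332), Cox8a (−0.32 ± 0.10, adjusted p = 0.0172) and Cox7a2l (−0.31 ± 0.11, adjusted p = 0.0369) were lower in Wnt5a + IgG as well (the call of Cox7a2l was lost in 5 of 12 fits without a single library), and Ndufa4, now counted to complex IV, did not pass (−0.25 ± 0.13, adjusted p = 0.178). The isoforms Cox4i2, Cox6a2, Cox8b and Ndufa4l2 had 0 counts in most libraries, with at most 0.193, 0.392, 0.0651 and 1.05 CPM in any library. Of the 3 genes of subunit c, Atp5g3 had 2612 CPM per kb, Atp5g1 73.7 and Atp5g2 0.426, and no 50-mer of Atp5g2 is unique.

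The promoters of the nuclear members were searched for the letters of factors known to act on such genes, from 250 bases before to 50 after the start in RefSeq (GRCm38.p6). A window was found for 62 of the 79 nuclear members. The letters searched on both strands were GCGCATGCG (NRF1), CCGGAAG (ETS factors such as GABP) and AAGATGGCG (YY1); NRF1 reads on both strands at once in GCGCATGCGC, and none of the 3 contains another. NRF1 letters were in 6 windows (9.68%, against 1.95% of 27025 genes with a window), ETS letters in 15 (24.2% against 9.93%) and YY1 letters in 7 (11.3% against 1.64%). At least 1 of the 3 stood in 24 windows (38.7% against 12.7%), in 18 of the 40 members that were lower in Wnt5a + IgG (45.0%) and in 6 of the 22 that were not (27.3%). By factor, NRF1 letters were in 5 of 40 (12.5%) against 1 of 22 (4.55%), and ETS letters in 12 (30%) against 3 (13.6%). YY1 letters were in 3 (7.5%) against 4 (18.2%). These counts are small, and the differences were not tested. A match describes the letters only. Among the lower members, Cox6a1 of complex IV (chr5:115348909-115349208, minus strand) held the most matches when each strand was counted apart. Cox8a of complex IV (chr19:7217567-7217866, minus strand) and Ndufa11 of complex I (chr17:56717512-56717811, plus strand) came first in the alphabet of those with 2. In Cox6a1 and in Ndufa11 the 2 NRF1 matches are the same stretch, GCGCATGCGC, read on both strands. The 3 windows are printed 5′ to 3′ on the strand of the gene, with the matches in capitals.
Cox6a1: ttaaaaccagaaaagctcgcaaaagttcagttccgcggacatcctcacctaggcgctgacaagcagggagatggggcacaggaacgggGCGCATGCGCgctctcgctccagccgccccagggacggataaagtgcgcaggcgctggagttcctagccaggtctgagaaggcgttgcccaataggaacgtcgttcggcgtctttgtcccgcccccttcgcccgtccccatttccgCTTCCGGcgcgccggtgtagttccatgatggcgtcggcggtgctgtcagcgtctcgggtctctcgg
Cox8a: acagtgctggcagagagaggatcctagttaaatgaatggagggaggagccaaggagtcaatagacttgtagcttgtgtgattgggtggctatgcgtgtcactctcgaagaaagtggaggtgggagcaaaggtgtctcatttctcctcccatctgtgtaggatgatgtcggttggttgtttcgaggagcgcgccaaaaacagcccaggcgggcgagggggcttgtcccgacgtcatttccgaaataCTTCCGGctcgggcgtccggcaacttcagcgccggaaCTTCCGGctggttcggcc
Ndufa11: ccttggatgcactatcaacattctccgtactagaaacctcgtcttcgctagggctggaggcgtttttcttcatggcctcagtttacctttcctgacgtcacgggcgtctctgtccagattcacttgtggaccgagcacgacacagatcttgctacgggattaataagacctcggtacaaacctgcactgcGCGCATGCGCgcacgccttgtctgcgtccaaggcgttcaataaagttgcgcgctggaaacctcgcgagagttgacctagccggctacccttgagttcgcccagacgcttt

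Genes that regulate or serve the chain were taken from lists. Of 23 tested regulators of mitochondrial biogenesis, 4 were lower in Wnt5a + IgG and 0 higher (median log2 fold change −0.17), beside 9.4% of all genes lower and 12.5% higher. Esrrg, an orphan nuclear receptor that acts on genes of oxidative metabolism, fell from 52.5 ± 17.4 to 19.96 ± 10.6 CPM (−1.39 ± 0.34, adjusted p = 0.00338), and Tfam, which packages mitochondrial DNA and is needed for its transcription, from 121 to 91.8 CPM (−0.39 ± 0.11, adjusted p = 0.00775). The others were Mterf3 (−0.34 ± 0.10, adjusted p = 0.0167) and Lrpprc (−0.26 ± 0.09, adjusted p = 0.0271), which stabilizes mitochondrial messengers. The factors whose letters were searched did not pass, with −0.17 ± 0.09 for Nrf1, −0.01 ± 0.08 for Gabpa and 0.02 ± 0.12 for Yy1, and neither did the coactivator Ppargc1a (−0.29 ± 0.31, adjusted p = 0.575). In SCM + IgG, 3 regulators were lower, beside 4.45% of all genes, namely Esrrg (−1.43 ± 0.35, adjusted p = 0.00526), Lrpprc (−0.37 ± 0.09, adjusted p = 0.00312) and the mitochondrial DNA helicase Twnk (−0.46 ± 0.15, adjusted p = 0.0444). Under 21 alternatives the call was lost in 9 for Twnk in SCM and in 4 for Lrpprc in Wnt5a.

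Other mitochondrial lists had lower genes and no higher ones in Wnt5a + IgG. The mitochondrial ribosome, which translates the mitochondrial messengers, had 48 of 77 tested genes lower and 0 higher (median −0.33), with the largest fall in Mrpl12 (−0.61 ± 0.12, adjusted p = 0.000426). The TCA cycle had 14 of 18 lower and 0 higher (median −0.32), and Idh3b, a subunit of isocitrate dehydrogenase, fell from 381 ± 16.9 to 263 ± 34.2 CPM (−0.53 ± 0.08, adjusted p = 5.58e-06). Of the assembly factors, 18 of 44 were lower and 0 higher (median −0.20), with the largest fall in Bcs1l, which inserts the Rieske protein into complex III (−0.71 ± 0.14, adjusted p = 0.00042). Of 10 carriers and outer membrane proteins 3 were lower and 0 higher (Tomm22 −0.38 ± 0.08, adjusted p = 0.00108). Of 6 tested subunits outside the symbol rule 1 was lower, the cytochrome c1 gene Cyc1, which fell from 967 ± 55.7 to 642 ± 85.3 CPM (−0.59 ± 0.09, adjusted p = 9.27e-06). All these counts stand beside the 9.4% of all genes that were lower.

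In SCM + IgG against complete media, where 4.45% of all genes were lower and 7.43% higher, 5 of 18 TCA cycle genes were lower and 0 higher. Of 44 assembly factors 3 were lower (Bcs1l −0.46 ± 0.14, adjusted p = 0.0304) and 2 higher (Uqcc2 0.39 ± 0.13, adjusted p = 0.0404). Of 77 ribosome genes 1 was lower (Mrps27 −0.30 ± 0.10, adjusted p = 0.0497) and 1 higher (Mrps6 0.34 ± 0.10, adjusted p = 0.0221), and of 10 carriers 1 was lower (Ucp2 −0.21 ± 0.06, adjusted p = 0.0273) and 1 higher (Vdac2 0.30 ± 0.09, adjusted p = 0.0323). Cyc1 was lower (−0.26 ± 0.09, adjusted p = 0.0493). Under 21 alternatives the call of Cyc1 was lost in 15, those of Mrps27 and Uqcc2 in 10 each, that of Vdac2 in 6, and those of Bcs1l, Mrps6 and Ucp2 in 4 each.

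In QCM + IgG, 1 of 18 TCA cycle genes was lower (Dlat −0.30 ± 0.07, adjusted p = 0.0394), beside 0.116% of all genes. Between SCM and QCM, 2 of 44 assembly factors (Cox10 −0.44 ± 0.10, adjusted p = 0.0228), 2 of 77 ribosome genes (Mrpl4 −0.33 ± 0.09, adjusted p = 0.0399) and Cyc1 (−0.32 ± 0.09, adjusted p = 0.0498) were lower in SCM. Of all genes, 0.71% were lower there. With anti-Ptk7, 2 of 77 ribosome genes were lower in SCM and 2 of 77 in Wnt5a, beside 1.44% and 1.52% of all genes, with the largest fall in Mrpl54 in both (−0.60 ± 0.09, adjusted p = 0.000207 in SCM, −0.55 ± 0.09, adjusted p = 0.000825 in Wnt5a). In SCM the assembly factor Coa5 (0.29 ± 0.07, adjusted p = 0.0137) and Ogdh of the TCA cycle (0.28 ± 0.08, adjusted p = 0.0494) were higher, beside 1.28% of all genes. Under 21 alternatives the call was lost in 14 for Cyc1 between SCM and QCM, in 12 for Mrpl4, in 12 for Ogdh, in 9 for Dlat, in 4 for Cox10 and in 3 for Coa5.

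Markers of cell types moved in the same comparisons. Of all genes tested, 12.5% were higher and 9.4% lower in Wnt5a + IgG than in complete media. The shares were 7.43% and 4.45% in SCM + IgG, and 0.542% and 0.116% in QCM + IgG. With anti-Ptk7, 1.28% were higher and 1.44% lower in SCM, and 1.05% and 1.52% in Wnt5a. Between SCM and QCM, 1.01% were higher and 0.71% lower in SCM. The marker counts stand beside these shares. The 7 epithelial markers summed to 9423 CPM in complete media + IgG (8359 to 11437), 15785 CPM in SCM + IgG (12368 to 19420.3) and 17969.8 CPM in Wnt5a + IgG (14575 to 27369.9), with 5 of 7 higher in SCM and 6 of 7 in Wnt5a (Krt8 1.25 ± 0.22, adjusted p = 0.000103). In Wnt5a the enterocyte list had 3 of 8 higher and 0 lower (Alpi 1.02 ± 0.16, adjusted p = 2.56e-05), and the stem cell list 1 of 5 higher (Ascl2 0.41 ± 0.13, adjusted p = 0.0234) and 1 lower (Smoc2 −0.67 ± 0.17, adjusted p = 0.00371). The Paneth cell list had 2 of 5 higher (Mmp7 0.89 ± 0.16, adjusted p = 0.000128) and 1 lower (Lyz1 −0.35 ± 0.12, adjusted p = 0.0403). Tuft cells had 2 of 3 tested markers higher (Dclk1 1.77 ± 0.60, adjusted p = 0.0314), enteroendocrine cells 1 of 5 (Cck 0.50 ± 0.13, adjusted p = 0.0037), goblet cells 0 of 5 in either direction (edgeR; 1 at an unadjusted p under 0.05), and of 6 proliferation genes 1 was lower (Cdk1 −0.34 ± 0.08, adjusted p = 0.00176). The call was lost in 7 of 21 alternatives for Ascl2 and for Lyz1 and in 5 of 20 for Dclk1. In SCM + IgG, 4 of 8 enterocyte markers were higher and 1 lower, 2 of 5 Paneth cell markers higher, 1 of 5 stem cell markers higher and 1 lower, 1 of 5 enteroendocrine markers higher and 1 of 6 proliferation genes lower. In QCM + IgG, 3 of 8 enterocyte, 1 of 5 Paneth cell and 1 of 5 enteroendocrine markers were higher. With anti-Ptk7, 2 of 5 enteroendocrine, 1 of 5 Paneth cell and 1 of 8 enterocyte markers were lower in SCM and likewise in Wnt5a, where 1 of 6 proliferation genes was lower too. Between SCM and QCM 1 of 5 Paneth cell markers was higher in SCM. The 10 fibroblast markers summed to 0.996 to 10.7 CPM and the 4 immune markers to 0.0931 to 3.88 CPM in any library. The part of the cell mixture in the differences of the members was not tested.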

How the data were processed

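Gene expression was measured by RNA-seq (Smart-Seq V4 from 2 ng of RNA, single-end reads of 50 bases) in 36 libraries, 6 per condition. The authors aligned the reads with GSNAP to the mouse genome (NCBI Build 38), counted reads within coding sequences and deposited raw counts per gene; a count's handling of strand and of multiple mapping is not given in the sources used here. All counts were tested with edgeR 4.0.16 (quasi-likelihood test, TMM scaling, filterByExpr, 15497 genes, a single model with 6 condition means) in R 4.3.3, and p-values were adjusted by Benjamini-Hochberg over all of them. CPM are TMM-scaled. The limit of 1 CPM and the summed shares in percent used plain totals. Totals of 9581589 counts or more set the precision, and members near 1 CPM rest on few reads. Cultures were set up from 6 mice, and the study's methods take replicates as mice unless stated otherwise. The labels do not assign libraries to mice, so the main model has no term for the mouse.

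The members and lists were chosen with earlier results of these data known. Genes named by rule were the mitochondrial members, the 3 largest rises and falls among nuclear members that passed in each comparison, the member with the highest level per kb in each complex, the Sdh genes, the tissue isoforms and subunit c genes, and 1 rise and fall per related list; other genes named were chosen after their values were seen. Levels per kb use coding length in place of the exon length first planned, since reads were counted within coding sequences. Alternatives changed the scaling (upper quartile or plain library totals), the filter on low counts, the libraries in the fit, the tool (voom with limma 3.58.1 and quantile normalization, or DESeq2 1.42.0), the members counted and the sums; 1 added the replicate number as a block and 1 the counts of nuclear copies. The test was tried on simulated counts before use. Values of 1 gene named by the rule are not reported here.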

Additional observations from a re-analysis of the deposited data

Results flagged for a closer look

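Among 252 sets of 6 libraries (a gene or sum in a condition), 20 had a highest or lowest library that stood apart from the other 5, with a gap to its neighbour above Dixon's 95% critical share of the range. Chance gives about 1 in 20 sets. In complete media + IgG, replicate 2 stood apart in Cox7a1 (highest, 7.70 CPM against 4.44 to 5.11 CPM in the others), Ndufa4 (highest, 482 CPM against 376 to 404 CPM in the others) and mt-Co3 (highest, 4.32 CPM against 2.17 to 2.88 CPM in the others). In QCM + IgG, replicate 5 stood apart in summed complex IV members (highest, 0.596% against 0.495 to 0.532% in the others) and Cox7a2 (highest, 394 CPM against 292 to 319 CPM in the others). In SCM + IgG, replicate 1 stood apart in Cox6b2 (highest, 4.49 CPM against 1.43 to 2.29 CPM in the others) and Ndufs1 (lowest, 185 CPM against 236 to 259.7 CPM in the others). In SCM + IgG, replicate 5 stood apart in summed complex III members (lowest, 0.308% against 0.339 to 0.354% in the others). In SCM + IgG, replicate 6 stood apart in Ndufa9 (highest, 355 CPM against 306 to 314 CPM in the others). In SCM + anti-Ptk7, replicate 1 stood apart in summed complex II members (lowest, 0.184% against 0.222 to 0.243% in the others) and mt-Nd1 (lowest, 2185 CPM against 2695 to 2829.5 CPM in the others). In SCM + anti-Ptk7, replicate 4 stood apart in Ndufa4 (highest, 534 CPM against 366 to 422 CPM in the others) and Uqcr10 (highest, 549 CPM against 298 to 388 CPM in the others). In Wnt5a + IgG, replicate 1 stood apart in Ndufv1 (lowest, 188 CPM against 267 to 310.5 CPM in the others). In Wnt5a + IgG, replicate 2 stood apart in summed mitochondrial members (highest, 0.600% against 0.281 to 0.400% in the others), mt-Atp6 (highest, 4.15 CPM against 2.02 to 2.46 CPM in the others), mt-Nd2 (highest, 672 CPM against 336 to 424 CPM in the others), mt-Nd4 (highest, 565 CPM against 297 to 395 CPM in the others) and mt-Nd6 (highest, 318 CPM against 141 to 190.4 CPM in the others). In Wnt5a + anti-Ptk7, replicate 1 stood apart in Sdhb (lowest, 243 CPM against 341 to 385 CPM in the others). Wnt5a + IgG replicate 2 held 5 of the 20, all of them high values of mitochondrial genes. Their cause was not tested.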

How the results depend on the processing

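For 125 calls of members and other named genes, 2622 values were computed under the alternatives; 0 changed direction and 307 lost the call, whereas the medians close to 0 (mitochondrial members in QCM, nuclear members in SCM, and both sets for anti-Ptk7) changed sign under some. In Wnt5a against complete media 39 to 56 members passed with single libraries left out (38 to 56 nuclear members lower, 0 to 1 higher), and 0 were higher with voom and limma. In QCM against complete media the 1 higher member became 4 with the replicate block, 8 with only the groups compared and 3 with DESeq2, and stayed 1 with each library left out. In SCM against complete media, 10 passed, but 4 without a filter on low counts (1 nuclear higher, 3 lower, 0 mitochondrial) and 6 with voom and limma (1 higher, 0 mitochondrial); the mitochondrial call was also 0 with library size alone, with counts of nuclear copies added and with members of at least 5 CPM. Among members with at least 90% unique 50-mers, a set chosen after seeing the data, 1 nuclear member was higher and 0 mitochondrial members passed there. With single libraries left out 4 to 10 passed (1 to 2 higher, 3 to 7 lower, 0 to 1 mitochondrial). Between SCM and QCM 4 were lower, and 0 without a filter, 13 with the replicate block, 8 with only the groups compared, 2 with voom and limma, 9 with DESeq2, and 0 to 8 with libraries left out. For anti-Ptk7 in SCM the 2 lower became 1 with members of at least 5 CPM, with either other filter on low counts or with library size alone, 0 with only the groups compared, and 0 to 2 with libraries left out; in Wnt5a it was 0 to 1. The summed nuclear level taken as mean log2 CPM was 115.8% of complete media in QCM + IgG (107.2% as a sum) and 102.9% in SCM + IgG, where the sum was 92.6%. Fewer samples enter some of these fits. Otherwise the cause was not tested. The shares of all genes called under the alternatives, the replicate block included, are not given here.

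No label ties the replicate numbers to mice, and 34 of 90 pairs of the same number correlated over 0.1 rather than every pair (mean 0.092, −0.044 to 0.450; different numbers −0.018), so the block is an alternative. As a hint from the data that the numbers carry something, 16 of 36 libraries correlated best with their own number, where 6 would if they carried nothing. With the replicate block 53 members passed in Wnt5a, 11 in SCM, 2 for anti-Ptk7 in SCM, and 0 for anti-Ptk7 in Wnt5a and for the interaction.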
